A study of Homo sapiens with 9 samples.

Results

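What inhibition of histone deacetylases and depletion of EZH2 have in common was examined in A673, a cell line from a Ewing sarcoma with the EWS/FLI translocation. The comparison used 8 of the 9 human Affymetrix arrays of the study, 4 from treated cells and 4 from control cells. Of the treated arrays, 2 came from cells given trichostatin A (TSA) at 100 nM for 24 hours, and 2 from cells transfected with EZH2 siRNA no.2 at 5 nM for 48 hours. Of the control arrays, 2 came from cells given DMSO at 0.01%, the solvent of TSA, for 24 hours, and 2 from cells transfected with control siRNA at 5 nM for 48 hours. The other array carried an EZH2 siRNA whose title gives no number, and it stayed outside the comparison. Arrays were chosen by their labels, and each treatment was set against its own control and its own replicate number. The replicates are called biological in their titles, but no source says that they came from separate cultures, so p-values measure only the spread between these arrays. A673 is 1 line derived from 1 tumour, and the measurements are of bulk RNA, in which fewer cells of a type and less RNA per cell cannot be told apart.

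EZH2 is the catalytic subunit of Polycomb repressive complex 2 (PRC2), which methylates histone H3 at lysine 27 and keeps developmental genes silent. Histone deacetylases remove acetyl groups from histones, which also favours silent chromatin, and they can act together with Polycomb complexes on the same promoters. TSA blocks the class I and class II deacetylases. In Ewing sarcoma, EWS/FLI activates one group of genes, EZH2 among them, and represses another that includes many genes of mesenchymal cells. The study asked what EZH2 contributes to the undifferentiated state and growth of these tumours, and the pooled comparison asks which genes respond alike to loss of EZH2 and to a general deacetylase inhibitor.

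The targeted gene was examined first. EZH2 had signals of 572 and 271 in the EZH2 siRNA arrays, against 1130.1 and 1172 in the control siRNA arrays. In the drug experiment it had 1257 and 1055 in TSA, against 990.1 and 861 in DMSO. The siRNA arrays were thus low and the TSA arrays slightly high, and over all 8 arrays EZH2 had a pooled log2 difference of -0.59 (SE 0.35, limma adjusted p = 0.623). EZH2 RNA was thus lower in the siRNA experiment and not lower in TSA. The Ewing sarcoma markers were bright, with mean signals of 17816 for CD99, 3145 for NKX2-2, a homeobox factor activated by EWS/FLI, and 968 for FLI1, whose probe set may also detect the fusion RNA. Of the markers of other cell types, 3 of 7 for blood (PTPRC, CD14 and LYZ), 7 of 10 for epithelium (EPCAM and CDH1 among them) and 4 of 11 for fibroblasts lay under a mean signal of 53.1. The other 4 for blood, 3 for epithelium (KRT8, KRT18 and MUC1) and 7 for fibroblasts lay at or above it. The summed signal overlapped between treated and control arrays in each list, at 412 to 696 in treated and 352 to 574 in control arrays for blood, and 5579 to 7858 in treated and 5009 to 7758 in control arrays for epithelium.

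Array medians ran between 142 and 159 in the treated arrays and between 125 and 151 in the control arrays. The ratio of 3' to 5' signal of ACTB, a sign of RNA quality, was 1.04 to 1.44 in treated arrays and 1.03 to 1.29 in control arrays. Replicate numbers stood apart: the hybridisation controls averaged 9.81 to 10.16 on the log2 scale in replicate 1 and 10.43 to 10.53 in replicate 2. The number was kept as a block throughout. The number of arrays limits the precision, since the pooled fit has 4 residual and 4.84 prior degrees of freedom.

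No probe set passed the adjusted threshold of 0.05 in the pooled comparison of treated with control arrays. Over 22215 probe sets, limma with Benjamini-Hochberg adjustment gave 0 calls (0.0%), with a lowest adjusted p of 0.383. An unadjusted limma p under 0.05 was reached by 2080 probe sets (9.36%), of which 1287 (5.79%) were higher and 793 (3.57%) lower in treated cells. This split depended on the scaling: 61.9% of these probe sets were higher in the values as deposited, against 47.3% after quantile normalization and 32.0% when each array was scaled to the same median. Signs below are those of the deposited values, counted against 0. On that scale 6963 of 11963 genes, each by its brightest probe set, were positive (58.2%), and the median of all probe sets was 0.05, against -0.03 after scaling to the same median. Counts of members called in the lists below are to be set against the 5.79% of probe sets that were higher and the 3.57% that were lower at this unadjusted p. By the brightest probe set of each gene, as the lists use, these shares were 5.85% and 4.08%.

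A gene was described as common to both treatments when the treated arrays lay on one side of their own control arrays, without overlap, in both experiments. This held for 1055 probe sets that were higher (4.75%) and for 627 that were lower (2.82%) in treated cells. By the brightest probe set of each gene, as the lists use, the shares were 4.96% and 3.25%. The balance of the probe set counts also turned with the scaling, to 741 higher and 801 lower after quantile normalization and 568 higher and 1055 lower with arrays scaled to the same median. By the same measure the treatments lay in opposite directions at 686 probe sets, 272 higher in TSA and lower with EZH2 siRNA (1.22%) and 414 the other way (1.86%). With a difference of at least 1.5-fold in both experiments, 132 probe sets were higher (0.594%) and 78 lower (0.351%). The TSA and siRNA experiments share no array, and their 2 effects had a Pearson correlation of 0.187 across all probe sets and of 0.243 across the 15550 with a mean signal of at least 53.1. Probe sets are not independent replicates, so no p is given.

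That resemblance lay within replicate numbers. Across all probe sets the TSA and siRNA differences of replicate 1 had a correlation of 0.248, and those of replicate 2 had 0.0927. Differences taken from different numbers had 0.0256 (TSA replicate 1 with siRNA replicate 2) and 0.0264 (TSA replicate 2 with siRNA replicate 1). Within a treatment, the differences of the 2 replicates had 0.0192 for TSA and 0.130 for EZH2 siRNA. The 2 TSA replicates thus had a lower correlation with each other than a TSA and an siRNA difference of the same number. What the arrays of 1 number share beyond the treatment was not tested.

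**Figure D1:**
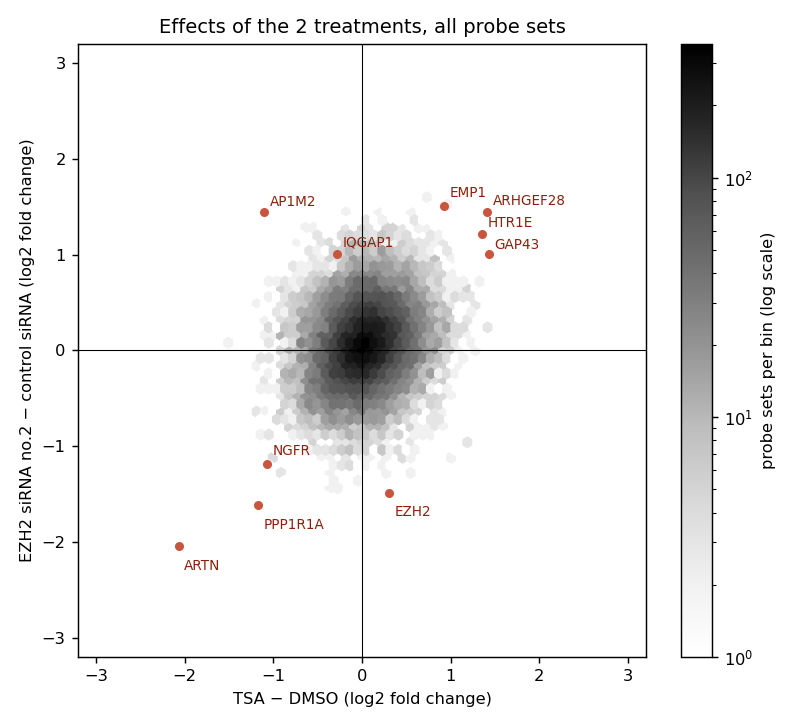
The log2 difference of TSA minus DMSO (x axis) is plotted against that of EZH2 siRNA no.2 minus control siRNA (y axis) for 22215 probe sets, with grey for the number of probe sets in each hexagon (log scale) and red points for some named genes. The cloud is wide and slightly tilted, with a Pearson correlation of 0.187, and ARTN and PPP1R1A lie far to the lower left and ARHGEF28, HTR1E and GAP43 to the upper right.

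The genes named as common to both treatments are 12 that were higher and 12 that were lower, ranked by the unadjusted limma p among genes with a mean signal of at least 53.1. They were chosen on these values, so their separation is a description. Their adjusted limma p ran from 0.383 to 0.467, and 23 of the 24 separated all 4 treated arrays from all 4 control arrays. Across all probe sets, 556 had every treated array above every control array (2.5%) and 350 had every treated array below (1.58%). Each treated array exceeded the control of its own number in all 4 pairs at 12.2% of probe sets and lay below it in all 4 at 6.64%. The promoters of the genes first in order on each side that the RefSeq promoter table holds are shown here because these genes differed the same way in both experiments. They are given 5' to 3' on the plus strand (GRCh38.p14, 300 bases around the annotated start), with each CpG, the dinucleotide that Polycomb-bound promoters are often rich in, in capitals. HTR1E lies at chr6:86937278-86937577, ARHGEF28 at chr5:73625946-73626245, TBCB at chr19:36114717-36115016 and ARTN at chr1:43933551-43933850.
HTR1E: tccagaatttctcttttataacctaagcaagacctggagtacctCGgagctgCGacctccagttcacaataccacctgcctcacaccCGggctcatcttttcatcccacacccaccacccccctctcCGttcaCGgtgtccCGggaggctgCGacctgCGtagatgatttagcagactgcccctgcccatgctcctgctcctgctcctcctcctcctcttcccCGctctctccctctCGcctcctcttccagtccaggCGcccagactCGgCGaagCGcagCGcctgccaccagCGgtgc
ARHGEF28: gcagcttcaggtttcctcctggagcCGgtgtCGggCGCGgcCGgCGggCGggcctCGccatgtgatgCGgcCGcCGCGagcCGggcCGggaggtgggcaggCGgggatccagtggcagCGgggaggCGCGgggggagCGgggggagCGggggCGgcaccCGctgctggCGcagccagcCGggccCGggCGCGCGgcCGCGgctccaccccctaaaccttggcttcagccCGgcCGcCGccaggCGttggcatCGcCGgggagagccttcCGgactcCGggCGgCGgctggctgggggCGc
TBCB: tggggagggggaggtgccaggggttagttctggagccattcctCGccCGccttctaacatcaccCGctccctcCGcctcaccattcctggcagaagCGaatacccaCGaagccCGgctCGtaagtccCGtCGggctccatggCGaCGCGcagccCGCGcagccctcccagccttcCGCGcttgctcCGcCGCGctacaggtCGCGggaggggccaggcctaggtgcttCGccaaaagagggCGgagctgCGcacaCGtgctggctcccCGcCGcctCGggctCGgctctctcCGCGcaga
ARTN: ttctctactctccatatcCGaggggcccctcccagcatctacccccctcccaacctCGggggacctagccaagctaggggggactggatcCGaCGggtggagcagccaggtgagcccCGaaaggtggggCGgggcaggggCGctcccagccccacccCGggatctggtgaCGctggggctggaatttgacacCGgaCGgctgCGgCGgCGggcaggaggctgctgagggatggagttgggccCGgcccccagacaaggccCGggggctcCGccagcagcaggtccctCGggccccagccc

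The window of ARHGEF28 held 41 CpGs with a GC content of 80.3%, and that of HTR1E held 16 with 61.3%. The window of TBCB held 32 CpGs with 69.7% GC, and that of ARTN held 18 with 71.7%. Promoters were matched for 9 of the 12 higher genes, with a median of 32 CpGs, and for 8 of the 12 lower genes, with a median of 17.5. The median over 9563 matched genes of the array was 24, between these. Within the higher genes the count ran between 7 (GAP43) and 41, and within the lower genes between 7 (FCGRT) and 38 (FKBP2), so the 2 ranges overlapped almost wholly. The GC box CCCCGCCCC, read on both strands, was found in 4 of the 9 higher and 6 of the 8 lower promoters, against 25.1% of the array's genes. GGAAGGAA, an ETS-type repeat, TGANTCA, the AP-1 motif, and TGACGTCA, the cyclic AMP response element, were found in none of these 17 windows, against 3.46%, 5.43% and 3.06% of the array's genes. Each string was counted as present or absent on its own, whether or not it overlapped another, and a match is only a match of letters.

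GAP43 and SOX11, both known from neurons or their precursors, were among the 12 higher genes. GAP43, a protein of the axonal growth cone, had signals of 562 and 590.3 in TSA and 372 and 377 with EZH2 siRNA, against 139 and 279 in DMSO and 173 and 175 with control siRNA. All 4 treated arrays lay above all 4 controls, and the pooled log2 difference was 1.22 (SE 0.21, limma adjusted p = 0.383), a 2.33-fold difference. The other GAP43 probe sets had 1.15, without overlap in both experiments, and 0.32. The last overlapped in both experiments, with 0.63 in TSA and 0.02 with EZH2 siRNA. SOX11, a transcription factor of neural progenitors, had 810.3 and 1219 in TSA and 839.5 and 1060.2 with EZH2 siRNA, against 403 and 631 in DMSO and 490.4 and 548 with control siRNA. Its 4 pair differences were alike, between 0.75 and 0.96, with a pooled value of 0.89 (SE 0.14). Its other probe sets were smaller, at 0.48 and 0.27, and in both the TSA arrays overlapped DMSO. The last was the brightest, with a mean signal of 761, against 750 for the probe set named here.

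HTR1E, a serotonin receptor, and ARHGEF28, an activator of the GTPase RhoA, had the larger differences but low signals. HTR1E had 76.6 and 59.5 in TSA and 119.5 and 102 with EZH2 siRNA, against 13.8 and 8.56 in DMSO and 34.2 and 32.1 with control siRNA. ARHGEF28 had 105 and 123 in TSA and 63.6 and 168 with EZH2 siRNA, against 18.2 and 37.8 in DMSO and 17.2 and 29.7 with control siRNA. Both separated all arrays, with pooled log2 differences of 1.29 (SE 0.18) and 1.43 (SE 0.22). Both passed the limit on mean signal only through the treated arrays, with means of 89.5 and 115 there, against 22.2 and 25.7 in control arrays, so they had to differ. These 2 values depended on the pseudocount, with ranges of 0.69 to 1.87 and 0.82 to 1.93 over the settings tried.

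TNFRSF21, PARG and MCL1 had moderate to bright signals and smaller differences. TNFRSF21, also called death receptor 6, had 1341 and 1026 in TSA and 1552 and 1578 with EZH2 siRNA, against 835 and 668 in DMSO and 842 and 671 with control siRNA (0.83, SE 0.14). The other TNFRSF21 probe set had 0.62 and overlapped in the TSA experiment. PARG, which removes poly(ADP-ribose) chains, had 701 and 876 in TSA and 802 and 908 with EZH2 siRNA, against 361 and 476 in DMSO and 493 and 525 with control siRNA (0.80, SE 0.13). MCL1, which protects cells from apoptosis, averaged 1433 ± 334 in treated and 839 ± 153 in control arrays by its x_at probe set (SD, n = 4 each), a log2 difference of 0.74. Its 4 other probe sets had smaller positive pooled values, 0.24 to 0.45. That with 0.45 overlapped in both experiments. Those with 0.24 and 0.30 overlapped in the siRNA experiment, with siRNA effects of 0.0012 and 0.11. The _x_at and _s_at probe sets can detect more than 1 transcript, so the size for MCL1 is uncertain.

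The thrombin receptor F2R averaged 1551 ± 144 in treated and 966 ± 103 in control arrays (0.67). YES1, a kinase of the SRC family, averaged 2745 ± 302 in treated and 1801 ± 106 in control arrays (0.60). The other YES1 probe sets had 0.44, at a mean signal of 2693, and 0.25, at 35.4. Both overlapped in the TSA experiment. The immediate early genes IER5 and IER2 had log2 differences of 0.65 and 0.70, and the transcription factor UBP1 had 0.65. All 5 separated the 8 arrays, with the lowest treated signal of UBP1 at 1042 and its highest control signal at 899.8.

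Genes lower in both treatments included a strong target of EWS/FLI. PPP1R1A, an inhibitor of protein phosphatase 1 that EWS/FLI is known to activate, had 887 and 1394 in TSA and 1044 and 777 with EZH2 siRNA, against 3027 and 2121 in DMSO and 2464 and 3209 with control siRNA. Its treated signals were 0.381 of the controls on the fitted scale (log2 difference -1.39, SE 0.21, limma adjusted p = 0.383), with no overlap. ARTN, a ligand of the GDNF family that supports neurons, had the largest difference of the 24: 89.2 and 35.8 in TSA and 190.3 and 21.3 with EZH2 siRNA, against 408 and 258 in DMSO and 365 and 410.0 with control siRNA. The pooled value was -2.06 (SE 0.34), while its other 2 probe sets, both x_at, had -0.46 and -0.77. FCGRT, the neonatal Fc receptor and another gene on the EWS/FLI-activated list, averaged 2187 ± 531 in treated and 3457 ± 572 in control arrays (-0.67). It is the gene whose groups touched over all 8 arrays, with 2944 in EZH2 siRNA replicate 1 and 2845 in DMSO replicate 2.

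Subunits of mitochondrial complex I, the NADH dehydrogenase of the respiratory chain, also appeared among the 12. NDUFB11 had 897 and 1829.7 in TSA and 1219 and 1781 with EZH2 siRNA, against 2821 and 2449 in DMSO and 2742 and 3919.9 with control siRNA (-1.08, SE 0.18). NDUFB8 had 2375 and 3571 in TSA and 2801 and 3141 with EZH2 siRNA, against 4124 and 4946 in DMSO and 5168 and 6028 with control siRNA (-0.77, SE 0.13). Treated arrays were low in both genes, and TSA replicate 1 was the lowest of all 8. The other NDUFB8 probe sets had -0.33 and 0.15, the last at a mean signal of 173, and each overlapped in both experiments.

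TBCB, a chaperone of tubulin folding, had the smallest p of the lower genes: 2243 and 2583 in TSA and 1965 and 2176 with EZH2 siRNA, against 4492 and 3852 in DMSO and 3828 and 3718 with control siRNA. All 3 of its probe sets were lower in treated cells, by -0.82, -0.62 and -0.43. HEBP1, a heme-binding protein, had -0.96, and RIDA, a deaminase that clears reactive imines, had -1.07. ERG28, a scaffold of the sterol-demethylating enzymes, had -1.02 and -0.76 in its 2 bright probe sets and 0.32 in another with a mean signal of 22.8. SUPT4H1, a subunit of the elongation factor DSIF, had -0.83, FKBP2, an ER isomerase, had -0.77, and GSTT1, a glutathione transferase, had -1.28 at signals of 13.5 to 43.0 in treated and 51.5 to 162 in control arrays. GSTT1 passed the limit on mean signal only through the control arrays. The other SUPT4H1 probe set had -0.34 and overlapped in the TSA experiment.

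**Figure D2:**
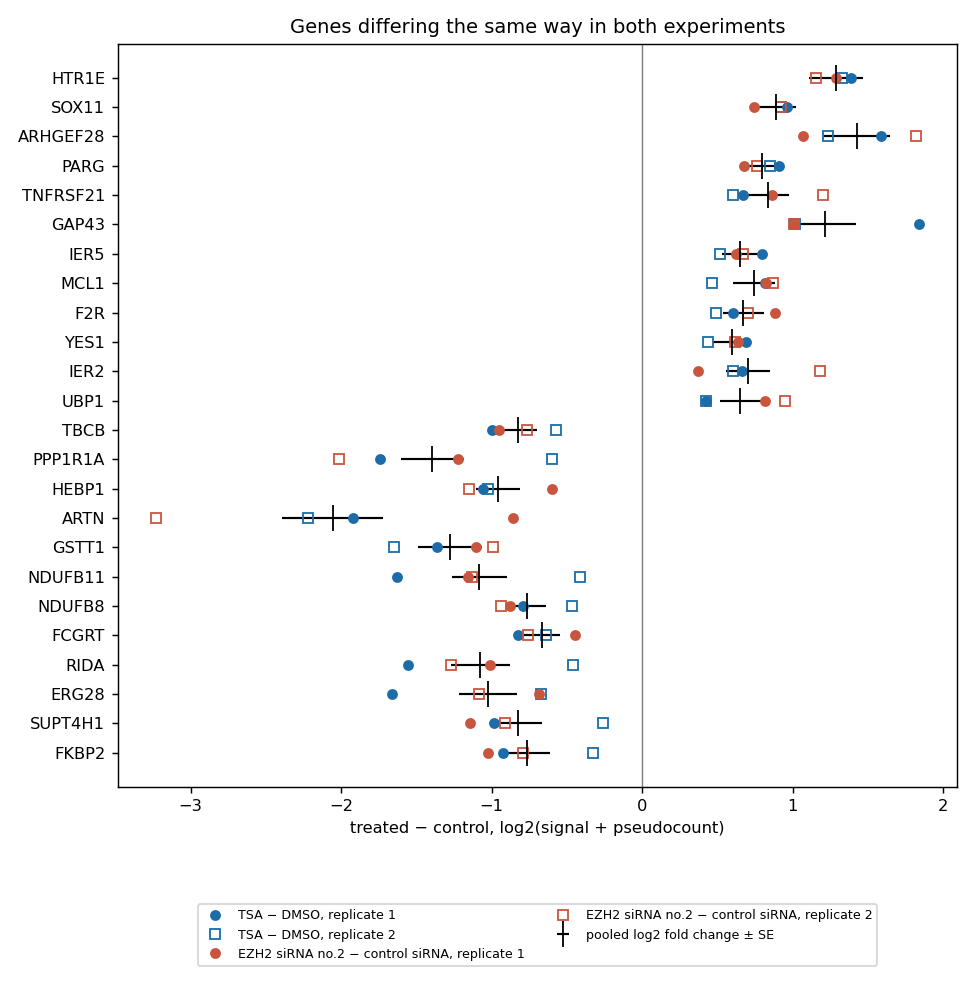
For the 24 named genes, the x axis gives log2 differences of treated minus control arrays of the same number, with filled circles for replicate 1, open squares for replicate 2, blue for TSA and red for EZH2 siRNA no.2. The vertical tick with its bar is the pooled value with its SE. All pair differences lie on the same side of 0, and the pooled values run between 0.60 and 1.43 for the higher genes and between -2.06 and -0.67 for the lower ones.

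Of the 5 genes followed in the study's publication, 4 were measured here. EPHB2 is missing because no probe set named it alone. GAP43 is described above. EMP1, an epithelial membrane protein, had 395 and 296 in TSA and 351 and 353 with EZH2 siRNA, against 113 and 243 in DMSO and 175 and 62.7 with control siRNA (1.22, SE 0.32, limma adjusted p = 0.469). All 4 treated arrays lay above the controls, though TSA replicate 2 and DMSO replicate 2 differed little. Its other probe sets had 0.70, without overlap in both experiments, and 0.30 at a mean signal of 35.6. The last overlapped in the TSA experiment, with an effect of 0.05 there. GFAP, the filament of astrocytes, had 60.3 and 73.3 in TSA and 34.6 and 67.3 with EZH2 siRNA, against 23.8 and 17.7 in DMSO and 19.5 and 9.79 with control siRNA (0.96, SE 0.21, limma adjusted p = 0.467). These are low signals, and its other probe set had 0.07 at a mean signal of 8.02. NGFR, the p75 neurotrophin receptor, had 54.8 and 125 in TSA and 190.2 and 95.3 with EZH2 siRNA, against 152 and 274 in DMSO and 356 and 330.1 with control siRNA (-1.13, SE 0.29, limma adjusted p = 0.469). NGFR was thus lower within each experiment, and its ranges overlapped when the 8 arrays were put together. The study chose these genes with its own arrays in view, so they are not independent evidence of a direction.

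**Figure D3:**
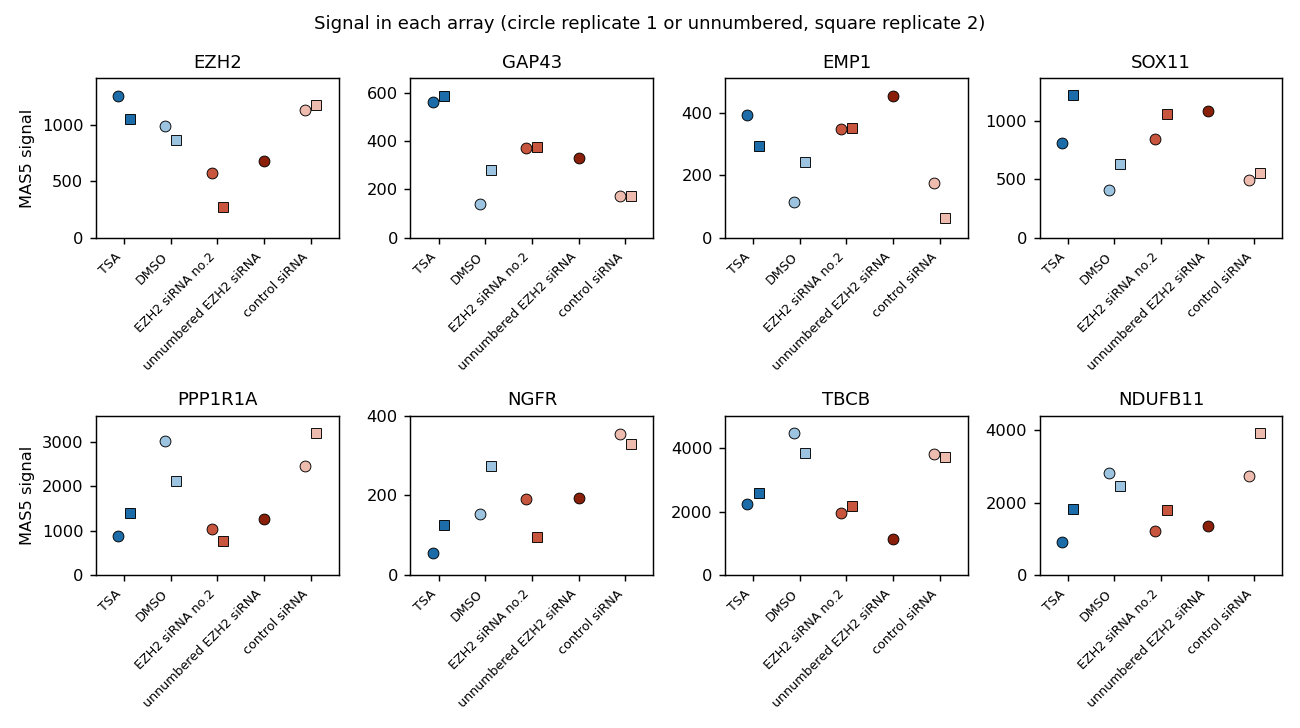
MAS5 signals (y axes, linear and starting at 0) of 8 genes are shown for each array, with each treatment left of its control, the unnumbered EZH2 siRNA between, circles for replicate 1 or no number and squares for replicate 2. EZH2 is low with the EZH2 siRNAs, while the treated arrays of GAP43, EMP1 and SOX11 lie above, and those of PPP1R1A, TBCB and NDUFB11 below, all control arrays.

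Genes known to be repressed by EWS/FLI were mostly higher in treated cells. Of 29 on the array, each by its brightest probe set, 27 had a positive and 2 a negative pooled difference, and the median was 0.34, against 0.05 over all 11963 genes. None passed the adjusted threshold, while 10 were higher and 1 lower at an unadjusted limma p under 0.05, against 5.79% and 3.57% of probe sets, and 9 were higher without overlap in both experiments, against 4.75%. TGFBI, a matrix protein, had 5424 and 4700.2 in TSA and 4143 and 5067 with EZH2 siRNA, against 3179.6 and 3709 in DMSO and 3073 and 2449 with control siRNA (0.64, SE 0.14). Fibronectin, FN1, had 19832 and 17959 in TSA and 14398 and 16209 with EZH2 siRNA, against 13378 and 13749 in DMSO and 11915 and 9719 with control siRNA (0.49, SE 0.14). In both genes every treated array was above every control array.

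Other matrix genes of that list had like values, with 0.82 for the collagen COL5A2, 0.66 for tenascin C (TNC) and 0.55 for the lysyl oxidase LOX. CCN1 and CCN2, secreted proteins induced by YAP signalling, had 0.78 and 0.82, the adhesion receptor CD44 had 0.77 and the stress-response gene IER3 had 0.68. S100A10, a partner of annexin A2, was the member that went the other way at an unadjusted p under 0.05 (-0.64). The list's median was 0.48 and 0.06 in the TSA pairs of replicates 1 and 2, and 0.36 and 0.74 in the siRNA pairs. It was 0.52 without TSA replicate 2 and 0.24 with arrays scaled to the same median. Fibroblast markers, which also include matrix genes, had 11 members with a median of 0.12, and their summed signal overlapped between treated (8132 to 16930.3) and control arrays (8907 to 11961). LUM, PDGFRA, FAP and POSTN lay under a mean signal of 53.1 and the other 7 above it, among them the collagens COL1A2 (0.12) and COL3A1 (0.66, with 0.97, 0.91 and -0.10 in its other probe sets). Without control siRNA replicate 1 the fibroblast median was -0.05. Their part in the values of the repressed genes was not tested.

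Genes activated by EWS/FLI were divided. Of 30 on the array, 17 were lower and 13 higher, with a median of -0.16, and 6 lower and 3 higher members had an unadjusted limma p under 0.05, against 3.57% and 5.79% of probe sets. Without overlap in both experiments, 4 were lower (13.3%, against 2.82%): PPP1R1A, FCGRT, the glutathione transferase GSTM4 (-0.61) and the mitotic kinase PBK (-0.27). KDSR, an enzyme of sphingolipid synthesis, was higher without overlap (0.38), and DKK2, a Wnt regulator, had 0.70. The median was -0.11 with EZH2 siRNA no.2 replicate 2 left out, -0.09 with DMSO replicate 1 left out and -0.10 with control siRNA replicate 2 left out. The 7 Ewing sarcoma markers had a median of -0.30, 6 of them negative, with -0.01 and -0.72 in the siRNA pairs, and without control siRNA replicate 2 the median was -0.10 and without TSA replicate 1 it was -0.17. None lay without overlap in both experiments, and their summed signal was 33794 to 39014 in treated and 37104 to 47341 in control arrays.

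Complex I subunits were lower as a group. Of 26 listed subunits on the array, 24 had a negative pooled difference, and the median was -0.37. By the unadjusted limma p, 11 were lower and 0 higher at the 0.05 level, against 3.57% and 5.79% of probe sets, and 9 were lower without overlap in both experiments, against 2.82%. Over all genes by their brightest probe set, the shares that were lower were 4.08% at that p and 3.25% without overlap. None passed the adjusted threshold. NDUFA1 had 1561 and 4072 in TSA and 1388 and 1674 with EZH2 siRNA, against 3194 and 3447 in DMSO and 3659.6 and 5384 with control siRNA (-0.96, SE 0.27). Its TSA arrays straddled DMSO, while its siRNA arrays lay far below their controls. NDUFB3 (-0.81), NDUFS7 (-0.70), NDUFB4 (-0.61), NDUFA7 (-0.54) and NDUFV1 (-0.29) were lower without overlap in both experiments. They belong to different modules of the complex, NDUFV1 and NDUFS7 to its catalytic arm and NDUFB3 and NDUFB4 to its membrane arm.

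The size for complex I differed by replicate number. The list's median was -0.79 in the TSA pair and -0.60 in the siRNA pair of replicate 1, against -0.05 and -0.21 in replicate 2. Without TSA replicate 1 the pooled median was -0.23. These are bright genes, with a median signal of 2268, and bright probe sets as a class differed the same way: class 10, the brightest of 10, had a median of -0.11 for TSA and -0.10 for siRNA in replicate 1, and of 0.01 for both in replicate 2. Of the 2222 probe sets in class 10, 169 were lower and 88 higher without overlap in both experiments, against 627 and 1055 of all 22215. With the median of its brightness class taken off each gene, an adjustment chosen after the data had been seen, the complex I median was -0.32. Among the other bright lists, cholesterol synthesis (median signal 2394) had -0.38, the Ewing sarcoma markers (3145) -0.30, EWS/FLI-activated genes (1979) -0.16, housekeeping genes (6647) -0.09 and cell cycle genes (2348) 0.05. Of the 11 housekeeping genes, 9 were negative (81.8%, against 41.8% of all genes). Without overlap in both experiments, 2 of them were lower (18.2%, against 3.25% of all genes). Of the 40 cell cycle genes, 15 were negative (37.5%). The part of brightness and of replicate number in the value for complex I was not tested.

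**Figure D4:**
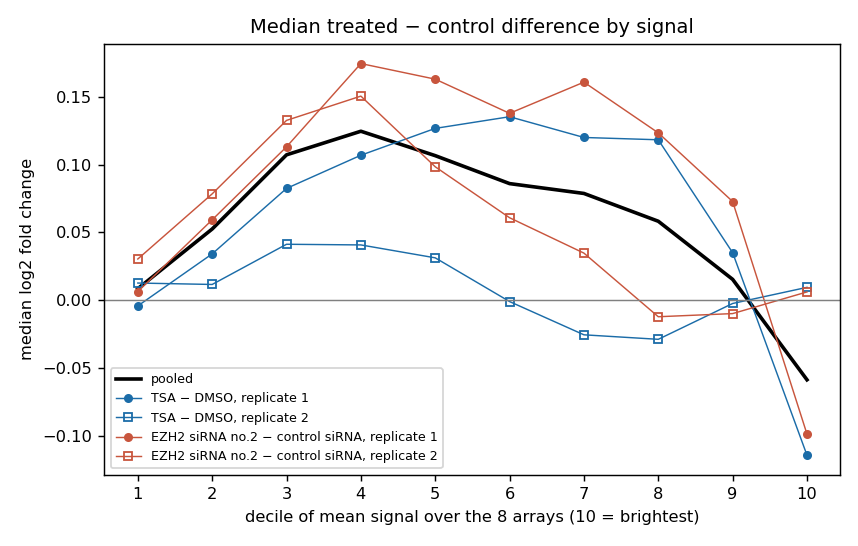
Probe sets are ranked into 10 classes by mean signal (x axis, dimmest to brightest), and the y axis gives the median log2 difference of treated minus control arrays in each class for the 4 pairs and for the pooled fit. The pooled median is 0.12 in class 4 and -0.06 in class 10, where the pairs of replicate 1 reach -0.11 (TSA) and -0.10 (siRNA) and those of replicate 2 stay at 0.01.

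Genes of cholesterol synthesis were mostly lower in treated cells, with the larger values in TSA. Of 15 on the array, 14 had a negative pooled difference with a median of -0.38, and 7 were lower and 0 higher at an unadjusted limma p under 0.05 (46.7% lower, against 3.57% of probe sets). Without overlap in both experiments 4 were lower, against 2.82%. The median was -0.66 in the TSA experiment and -0.03 in the siRNA experiment. The test of the difference passed the adjusted threshold for none of them. ERG28 (-0.76 in its brightest probe set), the isomerase IDI1 (-0.64), the sterol isomerase EBP (-0.60), the thiolase ACAT2 (-0.55) and the desaturase SC5D (-0.48) had the larger differences. EBP had 2130.1 and 2175 in TSA and 2571 and 1972 with EZH2 siRNA, against 4662 and 3575 in DMSO and 3022 and 2509.5 with control siRNA. Its siRNA arrays overlapped their controls. Without TSA replicate 2 the list's pooled median was -0.24.

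Lists on chromatin itself had small positive medians, 0.06 to 0.15, against 0.05 over all genes. The 8 PRC2 genes other than EZH2 had a median of 0.08, with JARID2, which recruits the complex, at 0.46. The other JARID2 probe set had 0.29 and overlapped in the TSA experiment. Without overlap in both experiments, 0 of the 8 were higher and 1 was lower (12.5%, against 2.82% of probe sets). The 12 PRC1 genes had a median of 0.15, with PHC2 at 0.49, and the 9 histone deacetylases had 0.14. Of 37 known Polycomb targets, 1 was higher and 2 lower at an unadjusted limma p under 0.05 (2.7% and 5.41%, near the 5.79% and 3.57% of all probe sets), the median was 0.08, and 0 separated in both experiments. Genes known to be raised by deacetylase inhibitors numbered 19, with a median of 0.10, 2 higher and 2 lower at that p (10.5% each). Their median was 0.05 in TSA and 0.15 with EZH2 siRNA, against 0.03 and 0.06 over all probe sets. CDKN1A, which stops the cell cycle, had 555 and 645 in TSA and 724 and 855 with EZH2 siRNA, against 409 and 445 in DMSO and 457 and 743 with control siRNA (0.44, SE 0.14). Its siRNA arrays overlapped their controls in 1 array. The 11 genes known to be lowered by such inhibitors had a median of 0.06, and 15 histone genes had 0.13.

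Lists on lineage had slightly positive medians with few single genes past that p. Of 32 neuronal genes, 22 were positive (68.8%, against 58.2% of all genes) with a median of 0.14. Without overlap in both experiments, 1 was higher (GAP43) and 1 lower (the neuronal enolase ENO2, -0.40), against 4.75% and 2.82% of probe sets, and the neurofilament NEFL had 0.63. The 8 glial genes had a median of 0.24, though only 3 reached a mean signal of 53.1. The 18 endothelial genes had a median of 0.11, and 5 of them reached that signal. The 9 stem cell genes had a median of 0.05, with PROM1 at 0.68, and the 9 cancer-germline genes had 0.26 at mostly dim signals.

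The other lists were near the median of all genes or rested on few members. Of 18 interferon genes, 3 were lower without overlap (16.7%, against 2.82% of probe sets), IFIT1 (-1.11), ISG15 (-0.66) and OAS1 (-0.57), while the median was -0.03. ISG15, a ubiquitin-like protein, had 462 and 882 in TSA and 696 and 795 with EZH2 siRNA, against 1039.9 and 972 in DMSO and 1100.2 and 1329 with control siRNA. The 20 genes of p53 and apoptosis had a median of 0.10 with 4 higher and 2 lower at an unadjusted limma p under 0.05, against 5.79% and 3.57% of probe sets. The 19 genes of amino acid and ER stress had -0.05, made of -0.23 in TSA and 0.31 with EZH2 siRNA. The 16 hypoxia genes had 0.01, the 8 metallothioneins -0.19, the 10 epithelial markers 0.02 and the 7 blood markers 0.24. Without 1 array or another, the median of 24 of the 28 lists moved by over 1.5 times or turned its sign. The sign of 13 of the lists' medians turned under at least 1 other setting, and their pooled medians lay between -0.19 and 0.26.

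**Figure D5:**
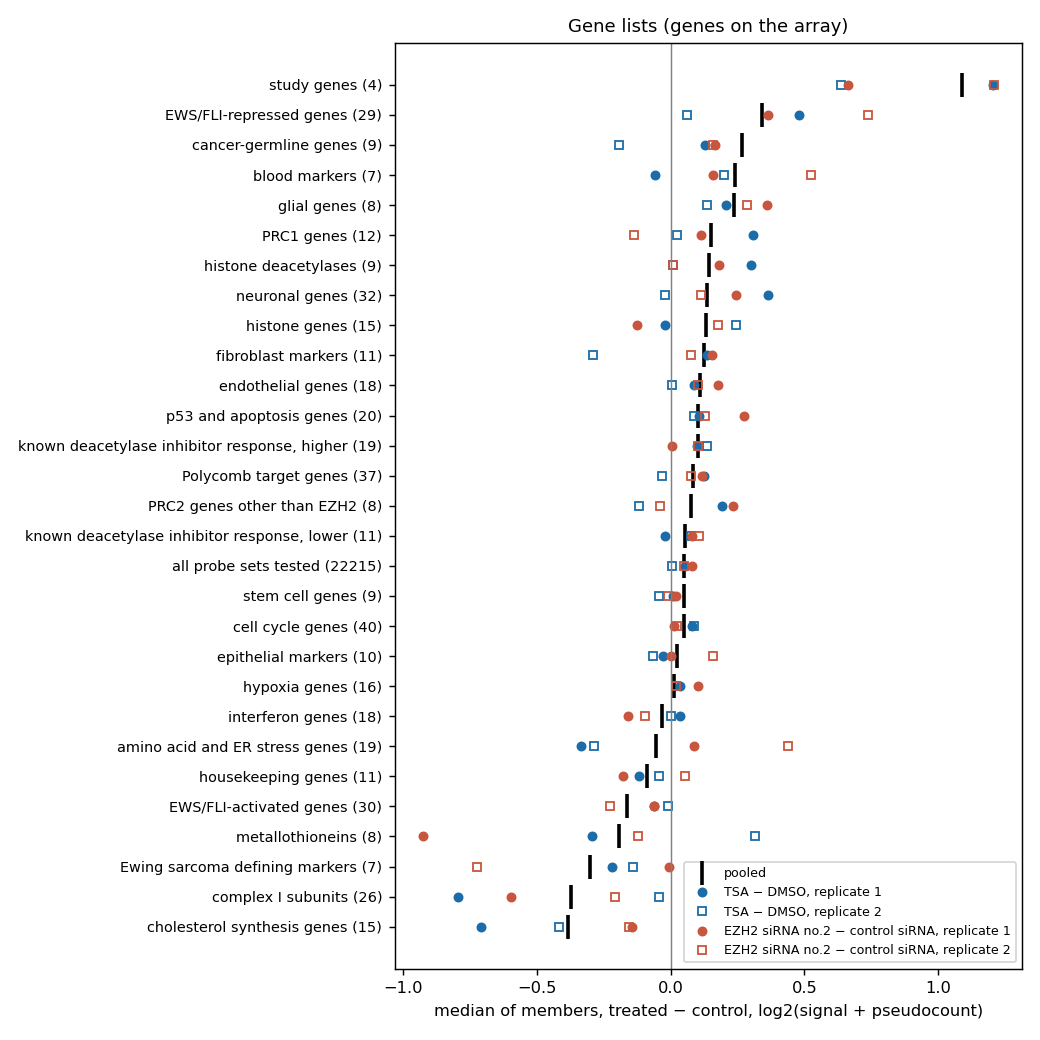
The median log2 difference of each gene list is shown for the 4 pairs of treated and control arrays (filled circles for replicate 1, open squares for replicate 2) and for the pooled fit (black ticks). The number of genes on the array follows each name. The EWS/FLI-repressed genes lie to the right (pooled 0.34), and complex I (-0.37) and cholesterol synthesis (-0.38) to the left, with the replicate 1 pairs of complex I at -0.79 and -0.60.

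Whether the 2 treatments differed was tested as the TSA effect minus the EZH2 siRNA effect. By limma, 0 probe sets passed the adjusted threshold (0.0%), with a lowest adjusted p of 0.999, and 818 had an unadjusted p under 0.05 (3.68%). Alone, TSA had 1013 probe sets at that p (4.56%) and EZH2 siRNA had 1684 (7.58%), with lowest adjusted limma p of 0.973 and 0.624. EZH2 itself was among the larger differences, at 1.80 (SE 0.38). INSIG1, a sensor of sterol synthesis, had 875 and 649 in TSA, against 1677 and 1149 in DMSO, and 708 and 773 with EZH2 siRNA, against 585 and 425 with control siRNA. It was thus lower in the drug experiment and higher in the siRNA experiment without overlap in either. IQGAP1, a scaffold of the actin skeleton, had 1323 and 1379 in TSA, against 1587 and 1713 in DMSO, and 1956 and 1738 with EZH2 siRNA, against 889 and 916 with control siRNA. Its other probe sets had -0.12 and 0.20 in TSA, against 0.38 and -0.01 with EZH2 siRNA, so 1 of them lay the other way.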

How the data were processed

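RNA of A673 cells was hybridised to human Affymetrix arrays, and 8 of 9 arrays entered the comparison. The values are MAS5 signal intensity, computed by the authors and deposited in 1 table, per the submitters' processing notes; the MAS5 version and scaling are not stated there. The deposited table holds 22283 probe sets, of which 68 are Affymetrix controls and 22215 were tested. By the platform annotation, updated by Entrez ID, 19065 probe sets name 1 gene (11963 genes), 1043 several and 2107 none.

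Each signal was turned into log2(signal + 25.1), with the 20th percentile of all values as pseudocount, so fold changes of dim genes are understated. limma 3.58.1 in R 4.3.3 (lmFit, eBayes with trend) was fitted to treatment, experiment and replicate number, and the difference of effects to a model with their interaction. Tests were two-sided with Benjamini-Hochberg adjustment over all 22215 probe sets. Same-numbered arrays deviated together in all 6 pairs of groups (correlations of 0.124 to 0.419 between the differences of replicate 2 and 1), so the number was taken to pair them. The fit was tested on simulated data.

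Genes were named by rule: EZH2 and the genes followed in the study's publication, the 12 each way with the smallest p among genes of mean signal at or above the 30th percentile (53.1) that separated in both experiments, 5 each way by the same order for opposite effects, and the leading 2 members of each list. List members not among these are named as examples. A gene in a list is represented by its brightest probe set. The comparison, its genes and the 28 lists were chosen with earlier results of these data known. Alternatives were other pseudocounts (5.37 and 87.1), filters, scalings, fits and each array left out.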

Additional observations from a re-analysis of the deposited data

Results flagged for a closer look

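In 10 genes, by the probe set named, the treated arrays lay on opposite sides of their controls in the 2 experiments without overlap. The difference of effects was tested in limma and passed the adjusted threshold in none of them, with an adjusted p of 0.999 in each. They were ranked by that test, so the values are a description. Across all probe sets, 272 (1.22%) were higher in TSA and lower with EZH2 siRNA, and 414 (1.86%) were the other way round.

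Higher in TSA and lower with EZH2 siRNA, given as the log2 effect of TSA minus that of the siRNA, were CHRM4, a muscarinic receptor (2.14), EZH2 (1.80), the dynein light intermediate chain DYNC1LI2 (1.66), the kinase HIPK1 (1.22) and the paraoxonase PON2 (0.97). The value of CHRM4 depended on the pseudocount, with a range of 1.16 to 3.01 over the settings tried. DYNC1LI2 had 912 and 935 in TSA, against 801 and 841 in DMSO, and 465 and 355 with EZH2 siRNA, against 994 and 1422 with control siRNA. The TSA effect was small and the siRNA effect carried most of the difference, as it did for EZH2.

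Lower in TSA and higher with EZH2 siRNA were the clathrin adaptor AP1M2 (-2.55), the opioid receptor OPRK1 (-2.42), the ubiquitin ligase adaptor DCAF1 (-1.90), INSIG1 (-1.41) and IQGAP1 (-1.29). AP1M2 had 36.4 and 35.3 in TSA, against 84.1 and 132 in DMSO, and 71.8 and 124 with EZH2 siRNA, against 16.7 and 21.8 with control siRNA. AP1M2, OPRK1 and DCAF1 are dim in all arrays, at 5.88 to 132.

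Other probe sets of these genes did not all do the same. As log2 effects, those of INSIG1 had -0.63 and -0.89 in TSA, against 0.40 and 0.22 with EZH2 siRNA, and that of AP1M2 had -0.70 in TSA, against 0.82. Those of DYNC1LI2 (-0.19 in TSA and -0.37 with EZH2 siRNA), HIPK1 (-0.18 and -0.49), PON2 (-0.04 and -0.21) and DCAF1 (-0.37 and -0.65) were negative in both experiments. Of the 2 others of IQGAP1, 1 had -0.12 and 0.38 and the other 0.20 and -0.01.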

How the results depend on the processing

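Under all 19 other settings, 0 probe sets passed the adjusted limma threshold for the pooled comparison or for the difference of effects. The lowest adjusted p of the pooled fit was between 0.0864 (filter at the 50th percentile of signal) and 0.847. Of 1567 values of single genes, 1 turned its sign: the metallothionein MT1F had a log2 difference of 0.012 without control siRNA replicate 1, against -0.34 with all 8 arrays and -0.68 without TSA replicate 2. Apart from the study genes, these genes were chosen on these same values. Of the 24 common genes, 23 separated all 8 arrays, so few signs could turn. Another block, or a fit without trend, leaves a log2 difference of the 8 arrays unchanged. The count is therefore no measure of robustness.

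The replicate number paired the arrays. Without the replicate block, 1487 probe sets had an unadjusted p under 0.05 (891 higher, 596 lower), against 2080 with it, and with a block for each of the 4 pairs there were 2194. Neither changed a call.

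Filters, alone or with 1 probe set per gene, test fewer features, which lowers the counts by construction. With the filter at the 30th percentile, 484 probe sets had an unadjusted p under 0.05 for the difference of effects. With the filter at the 50th percentile the numbers were 1320 for the pooled fit, of which 715 were higher, 545 higher without overlap, and 308 for the difference. With 1 probe set per gene and the filter at the 30th percentile together they were 1030 (595 higher, 435 lower), 462 higher and 334 lower without overlap, and 316 for the difference. Scaling each array to the same median gave 662 higher and 1406 lower, and 568 higher and 1055 lower without overlap. The cause was not tested.

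With each array left out in turn, the pooled count at that p ran between 1294 (without EZH2 siRNA no.2 replicate 1) and 2374 (without TSA replicate 2), with 824 to 1481 higher and 470 to 893 lower. Counts without overlap were 1535 to 2276 higher and 891 to 1245 lower, since fewer arrays have to separate. The difference of effects had 595 to 1461.

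The medians of the EWS/FLI-repressed genes (0.24 to 0.52), complex I (-0.48 to -0.23) and cholesterol synthesis (-0.49 to -0.24) kept their sign under every setting. Signal limits the rest: log2 differences of dim genes depend on the pseudocount, as in GFAP (0.47 to 1.47) and GSTT1 (-1.72 to -0.74). Without EZH2 siRNA no.2 replicate 2 the pooled EZH2 value was -0.20, against -0.59.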

Other observations

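The array of the unnumbered EZH2 siRNA took no part in choosing the common genes. It has 1 array and no replicate check, and it shares the 2 control siRNA arrays with the comparison, which helped to choose them. Its EZH2 signal was 681, against 1130.1 and 1172 with control siRNA.

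Of the 12 genes named as higher in both treatments, 11 had a signal above both control siRNA arrays in this array, the exception being IER2 (2300.1, against 2601 and 1647). Of the 12 lower genes, 12 were below both. Over all probe sets, 39.2% lay above and 27.5% below both. Of all probe sets higher without overlap in both experiments, 78.3% lay above both, and of those lower, 77.7% lay below both. These probe sets and the named genes were chosen with the same control siRNA arrays, so their shares are not an independent check. GAP43 had 329 (against 173 and 175), SOX11 1082 (against 490.4 and 548) and PPP1R1A 1273 (against 2464 and 3209). TBCB had 1122, against 3828 and 3718. Among the complex I subunits, 17 of 26 lay below both control siRNA arrays and 3 above. Among the EWS/FLI-repressed genes 12 of 29 lay above both (41.4%), close to the 39.2% of all probe sets, and 5 below.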
